A study of Mus musculus with 6 samples.

Results

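Untreated Dot1L null mouse embryonic fibroblasts were compared with untreated wild-type ones by RNA-seq, with 1 library on each side. These are 2 of the 6 samples of the series and 2 of its 4 RNA-seq libraries. Of 37224 gene IDs in the table, the 11793 with an RPKM (reads scaled to gene length and library depth) of at least 1 in either library were compared. The genotypes are written wild type and Dot1L-/-, both on a C57BL/6 background, and the labels call the cells primary mouse embryonic fibroblasts (MEF). Both were grown in high-glucose DMEM with fetal bovine serum and kept for 24 h in fresh medium with 0 µM sodium arsenite. How the Dot1L allele was made, and how many embryos, lines or clones stand behind each genotype, is not given in the sources used here. The other RNA libraries, 1 per genotype after 24 h of a low arsenite dose, give a further null against wild-type pair that shares no library with the untreated one, and its counts or medians are given beside those of the gene lists.

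DOT1L is the methyltransferase of H3K79, a lysine on the surface of the nucleosome core. Its mark lies over the bodies of transcribed genes, and the enzyme is recruited together with elongation factors through partners such as AF9, ENL and AF10. In leukemias with MLL fusions this recruitment maintains HOXA9 and MEIS1, and in the embryo loss of Dot1L is lethal. Fibroblasts are mesenchymal cells that secrete extracellular matrix and growth factors and carry, in their Hox and other patterning genes, a record of where in the body they came from.

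Differences were taken as log2((null RPKM + 1)/(wild-type RPKM + 1)), and "higher" and "lower" below mean at least 2-fold on that scale. It understates differences of genes with low values. A single library per group leaves nothing to check a difference against, so no test, standard error or p-value was computed, and each difference is one between libraries that may also differ in culture, passage or preparation. Where 2 RPKM values of a gene are given together, wild type comes first and the null second. Ranges in parentheses after a fold are exact 95% intervals of the ratio of reads, which cover counting error only. Bulk RNA cannot tell fewer cells of a type from less RNA per cell.

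The controls held 62972880 (wild type) and 64699847 (null) reads, as recovered from the whole-read steps of RPKM, against 10833103 and 11879632 in the arsenite libraries. Dot1l (ENSMUSG00000061589, chromosome 10, 80755101 to 80795461 in GRCm38) had an RPKM of 30.4 and 9.59 in the controls and 5.71 and 1.24 with arsenite. Both null libraries were below their wild-type partner, and reads outside a deleted part of the gene would still be counted. Of 13 fibroblast markers, 9 passed the filter, with a summed RPKM of 2653 (wild-type control) and 2277 (null); Vim and S100a4 made up most of it, and Thy1 was at 0 in both. Of the other marker lists, those of skeletal muscle, pluripotent and germ cells, melanocytes and erythroid cells had no member past the filter. The endothelial list had 1 of 9, the cardiac 1 of 8, the epithelial 2 of 12, the adipocyte 2 of 8, the mesothelial 2 of 7, the neural and glial 3 of 14, the macrophage and leukocyte 3 of 13, the cartilage and bone 4 of 11 and the smooth muscle and pericyte list 4 of 11. Cardiac markers summed to 14.6 (wild-type control) and 1.65 (null), and to 52.7 and 4.62 with arsenite, nearly all of it Tnnt2, a cardiac troponin. The epithelial list summed to 4.52 and 9.52 in the controls, the endothelial to 1.14 and 2.43 and the adipocyte to 5.64 and 4.62. The part of these cell types in the results was not tested, and the other sums are given where a result holds genes of the list.

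In the untreated null, 812 genes were higher (6.89% of the genes compared) and 1852 lower (15.7%). The median of all genes was −0.19, so a list whose median lies near that value stands where most genes do. The split depended on scaling: 30.5% of the genes past 2-fold were higher as deposited, 37.3% with libraries scaled at the 75th percentile and 46.1% with differences centred on the median. At larger folds the balance turned, with 207 genes higher and 361 lower by at least 4-fold, 71 and 75 by at least 8-fold, and 29 and 15 by at least 16-fold. There were 67 genes under 0.5 RPKM in wild type and at 5 or more in the null, and 75 the other way round. Of the 2664 genes past 2-fold, 2653 had an interval of the read ratio that left out 1. This bears on the direction of a difference and not on whether it was past 2-fold. The filter passed Gon7 at an RPKM of 1.00 in its higher library and stopped Rhpn1 at 0.999.

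**Figure D1:**
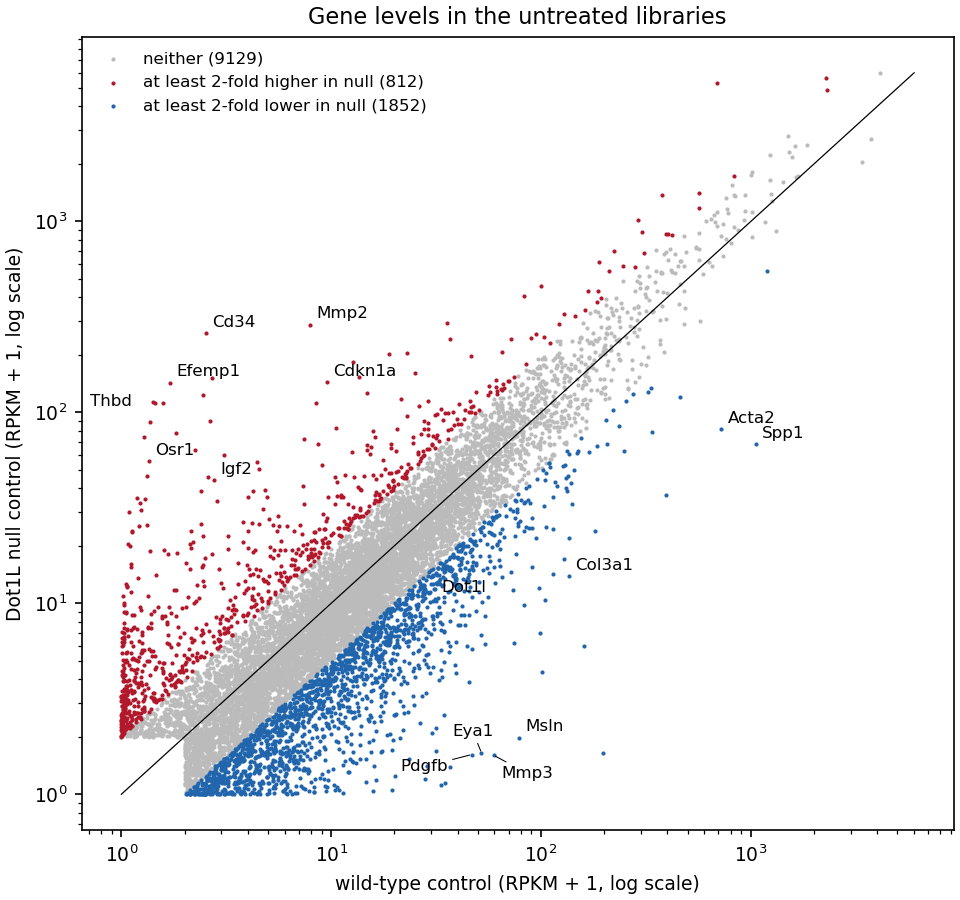
Level of each of the 11793 genes in the wild-type control (horizontal) and the Dot1L null control (vertical), as RPKM + 1 on log scales, 1 library each; the line marks equal levels. Red points (812) are at least 2-fold higher in the null and blue points (1852) at least 2-fold lower; Cd34, Efemp1 and Thbd lie far above the line, Msln, Mmp3, Eya1 and Pdgfb far below it.

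The arsenite pair gave 812 genes higher (6.89%) and 1985 lower (16.8%) in the null, with a median of −0.30. Of the 812 genes higher untreated, 368 (45.3%) were higher there too and 25 (3.08%) were lower. Of the 1852 lower untreated, 720 (38.9%) were lower there and 26 (1.40%) higher. The larger the untreated difference, the more often the arsenite pair showed it: 67 of the 71 genes higher by at least 8-fold and 62 of the 75 lower by at least 8-fold were past 2-fold the same way, as were all 29 and all 15 at 16-fold. Across the 11793 genes, which are not independent replicates, the paired differences correlated at 0.54 by Pearson's r and 0.42 by Spearman's rho. The labels do not say whether both pairs came from the same cell stocks. This repeats the libraries and cannot be taken to repeat the derivation of the cells.

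**Figure D2:**
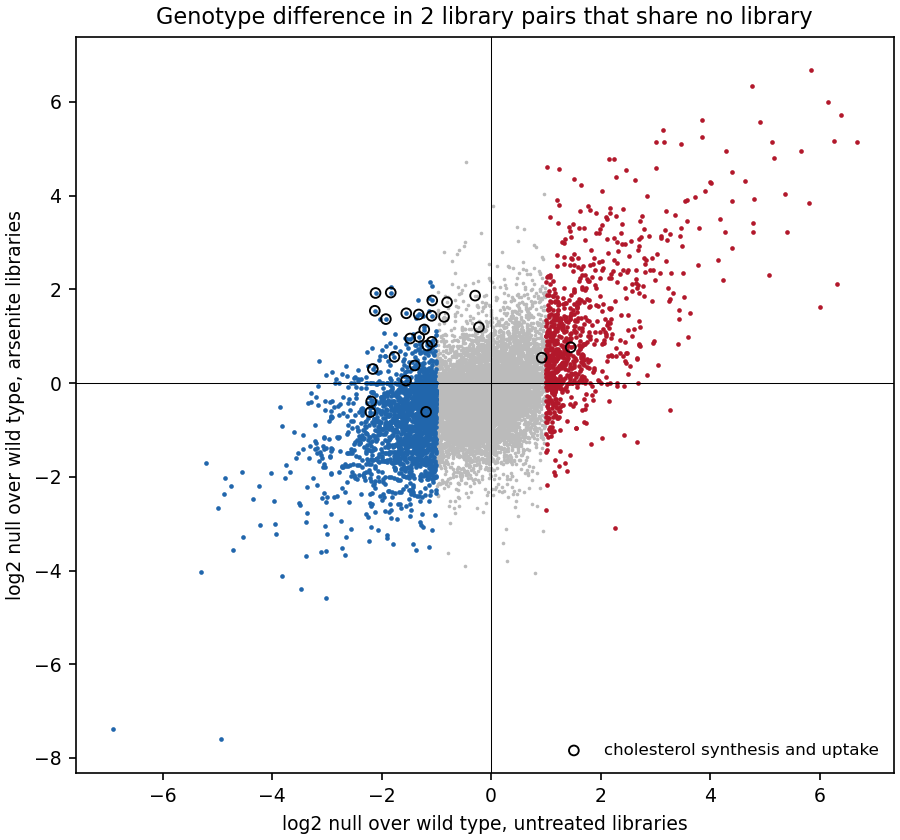
Null against wild-type difference (log2 of RPKM + 1) of each gene in the untreated libraries (horizontal) and in the arsenite libraries (vertical), with genes past 2-fold untreated in red and blue. Most of the far red and blue points keep their side, whereas the circled cholesterol genes, mostly at left of 0, lie above 0 under arsenite.

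Among the genes with the largest positive differences were several of secreted or surface proteins. Cd34, a surface sialomucin of progenitor and stromal cells (ENSMUSG00000016494, chromosome 1, 194938821 to 194961292), had an RPKM of 1.53 and 258 in the controls and 3.804 and 169.6 with arsenite. It was 168-fold higher (149 to 191) in the untreated null, and both null libraries lay far above both wild-type ones. Mmp2, the gelatinase A of the matrix (ENSMUSG00000031740, chromosome 8, 92827290 to 92853421), stood at 6.97 and 287 in the controls and 3.68 and 129 with arsenite, 41.2-fold higher (38.97 to 43.5) untreated. Next to them were Efemp1, an elastic fibre glycoprotein (0.709 and 142 in the controls), Thbd, thrombomodulin, a thrombin receptor of endothelium (0.414 and 112), Nid1, a basement membrane linker (0.376 and 87.9), and Fbln2, a fibulin (1.71 and 149.9). Ctsz, a lysosomal cysteine protease, went with them (0.573 and 111), and so did the urea cycle enzyme Ass1 (1.45 and 122), the amine-degrading Maoa (0.827 and 76.5) and the lipid-droplet protein Plin3 (0.324 and 45.4). Plp2, Gpnmb, Igfbp2, Rasl11a and the patterning factor Osr1 complete the 15 highest. All 15 were past 2-fold higher under arsenite as well, with log2 differences from 1.63 for Nid1 to 5.99 for Ctsz.

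At the other end, Msln, which encodes the surface protein mesothelin (ENSMUSG00000063011, chromosome 17, 25748613 to 25754378), had an RPKM of 77.3 and 0.98 in the controls and 37.5 and 1.35 with arsenite and was 78.9-fold lower (66.5 to 94.3) in the untreated null. Eya1, a transcriptional cofactor and phosphatase of organ formation (ENSMUSG00000025932, chromosome 1, 14168953 to 14311035), stood at 51.04 and 0.647 in the controls and 5.58 and 0.0385 with arsenite, 78.8-fold lower (68.1 to 91.7) untreated. Both wild-type libraries were above both null libraries in each gene. Spp1, the matrix phosphoprotein osteopontin, was among the most abundant RNAs of wild-type cells, at 1058 and 67 in the controls and 193 and 32.8 with arsenite. Mmp3, a stromelysin (58.4 and 0.602 in the controls), the heparan sulfatase Sulf1 (32.2 and 0.124), the growth factor Pdgfb (45.7 and 0.614), the scavenger receptor Colec12 (35.7 and 0.391), the phosphodiesterase Pde8a (27.04 and 0.195), the prolyl hydroxylase subunit P4ha3 (30.7 and 0.676) and Igfbp3 (18.5 and 0.0494) were also among the 15 lowest. So were Lmcd1, Klhl30 and the integrin ligand Npnt, together with Rps3a3 and Rab26os, which are uncertain. Rps3a3 is a near copy of a ribosomal protein gene with which it could share reads, and Rab26os is an antisense gene whose reads cannot be told from those of its partner without the strand setting of the counting. Msln and Spp1 also stand in marker lists of other cell types. The summed RPKM of 7 mesothelial markers was 78.04 (wild-type control) and 9.05 (null), nearly all of it Msln in wild type, but without Msln the other 6 summed to 0.747 and 8.07. That of 11 cartilage and bone markers was 1096 and 101, mostly Spp1, and without Spp1 the other 10 summed to 38.2 and 34.3, with Ibsp at 0 in both. Their part in these differences was not tested.

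Many targets of p53 were higher in the null. p53 is a transcription factor that responds to DNA damage and other stress, and its targets halt the cell cycle, feed back on p53 or promote cell death. Of 25 targets, 11 were higher and 3 lower, with a median of 0.67. The arrest gene Cdkn1a, which encodes the cyclin-dependent kinase inhibitor p21 (ENSMUSG00000023067, chromosome 17, 29090979 to 29100722), had an RPKM of 8.56 and 143 in the controls and 8.84 and 168 with arsenite. With 1199 and 20518 reads in the controls it was 16.7-fold higher (15.7 to 17.7), and the wild-type and null libraries formed separate groups under either treatment. Mdm2, the ubiquitin ligase that degrades p53, stood at 15.1 and 72.9 in the controls and 4.24 and 23.96 with arsenite, and Ccng1, a cyclin G of the same feedback, at 12.6 and 153 in the controls and 8.75 and 73.3 with arsenite. Both null libraries were above both wild-type libraries for these genes as well.

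Further targets with known pro-apoptotic or growth-restraining roles stood on the same side. Bax, a pore former of the mitochondrial membrane, had 93.5 and 256 RPKM in the controls, the death receptors Tnfrsf10b and Eda2r had 3.03 and 23.05 and 1.399 and 25.01, and Trp53inp1, Phlda3 and Zmat3 had 1.84 and 33.4, 20.6 and 116 and 3.75 and 30.2. The 3 lower targets, named after their values were seen, were Sesn1, Ddb2 and Pmaip1, at log2 differences of −1.84, −1.61 and −1.36, and Trp53 itself was at 0.33. Under arsenite 11 of the 25 were higher and 3 lower, 10 of the higher ones shared with the untreated pair. Of 17 genes of a list of cell cycle inhibitors and p53, 2 were higher and 6 lower untreated and 4 and 4 under arsenite. The INK4 and ARF inhibitors took the opposite side. Cdkn2a, which encodes p16 and p19ARF, stood at 118 and 40.1 in the controls and 222 and 194 with arsenite, and Cdkn2c and Cdkn2d, which encode p18 and p19 of the INK4 family, at 11.5 and 1.69 and 19.4 and 1.63 in the controls. For Cdkn2a the arsenite libraries differed little, so that the wild-type and null libraries overlapped over the 4.

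**Figure D3:**
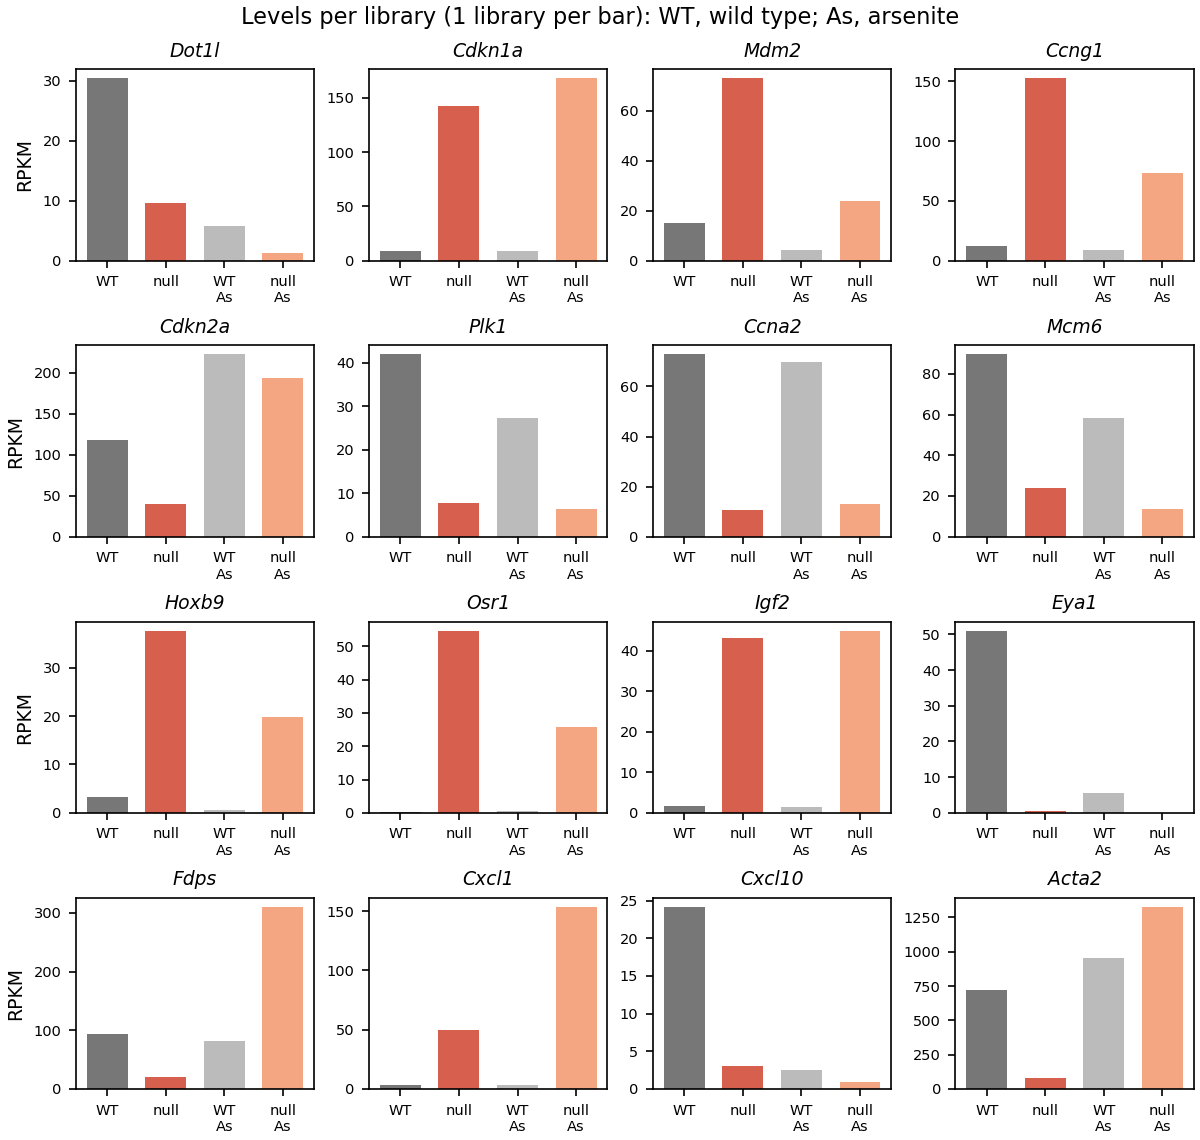
RPKM of 16 genes in each of the 4 RNA-seq libraries, 1 bar per library from 0; WT is wild type, As is arsenite. Cdkn1a, Mdm2, Ccng1, Hoxb9, Osr1, Igf2 and Cxcl1 are high in both null bars, Plk1, Ccna2 and Mcm6 are low in both, and Fdps and Acta2 are low in the untreated null bar and highest in the null bar under arsenite.

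Genes of cell division were lower in the null. Of 27 mitosis genes, 25 were lower and none higher (median −1.67), and the remaining 2, named after their values were seen, were Ccnb1 at −0.82 and Cdk1 at −0.43. The same count, 25 of 27, was lower in the arsenite pair, with 23 genes shared. Ccna2, the cyclin A of S and G2 phase (ENSMUSG00000027715, chromosome 3, 36564865 to 36573038), had an RPKM of 72.8 and 10.7 in the controls and 69.8 and 13.2 with arsenite and was 6.82-fold lower (6.53 to 7.12) untreated. Plk1, the polo-like kinase of mitotic entry, stood at 41.9 and 7.64 in the controls and 27.2 and 6.46 with arsenite. Birc5, the survivin subunit of the chromosomal passenger complex, stood at 35.3 and 4.55 in the controls and 93.6 and 26.3 with arsenite. In each of these the null library was below the wild-type library of the same treatment.

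Of 28 DNA replication genes, 12 were lower and none higher (median −0.99), all 28 had a difference below 0, and 24 were lower under arsenite. Mcm6, a subunit of the replicative helicase (ENSMUSG00000026355, chromosome 1, 128331575 to 128359705), had an RPKM of 89.5 and 23.9 in the controls and 58.4 and 13.8 with arsenite. Its helicase activator Cdc45 stood at 22.2 and 5.96 in the controls, the polymerase subunit Pold1 at 14.4 and 4.11, the ribonucleotide reductase subunit Rrm1 at 78.1 and 26.1 and the transcription factor E2f1 at 33.2 and 12.7. These values were all lower in the null by more than 2-fold. Replication-dependent histones, whose RNAs are made in S phase and carry no poly(A) tail, had 6 of 9 lower and none higher (median −1.55), among them Hist1h2bc at 25.01 and 4.599 and Hist1h4i at 13.7 and 4.03. Only 1 of the 9 was lower under arsenite. The list held 29 genes, and a gene that passed the filter through its wild-type level alone had to lie below 0. With no filter the untreated median was −0.48. The labels name both a poly(A) molecule and a ribosomal RNA removal kit, so how such RNAs were captured is unsettled, and histone copies can share reads.

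Promoter sequences of the cell cycle genes are shown because members of these lists lay on the same side. In the RefSeq promoters of GRCm38 (250 bases before to 50 after the gene start), 22 of the 27 mitosis genes had an entry, and 17 (77.3%) held a CHR-type element, TTTGAA or TTCGAA on either strand, against 15.98% of the 8905 promoters matched. A CCAAT box (CCAAT on either strand) was found in 18 (81.8%), against 43.6%. Stretches that end at the base before the start follow for Ccnb2 (minus strand, chr9:70421555-70421724), whose cyclin B2 partners the mitotic kinase, Cdc20 (minus, chr4:118437344-118437423), an activator of the anaphase-promoting complex, Ube2c (plus, chr2:164769829-164769928), its ubiquitin-conjugating enzyme, and Kif11 (plus, chr19:37376302-37376381), a spindle motor. Capitals mark both elements, and ATTGG and TTCAAA are the boxes on the other strand. The promoter window held further matches outside these stretches. In Ccnb2 a CHR-type match began 4 bases past the start, and in Ube2c CCAAT boxes began between −228 and −155. Cdc20, Ube2c and Kif11 were picked after their values were seen.
Ccnb2: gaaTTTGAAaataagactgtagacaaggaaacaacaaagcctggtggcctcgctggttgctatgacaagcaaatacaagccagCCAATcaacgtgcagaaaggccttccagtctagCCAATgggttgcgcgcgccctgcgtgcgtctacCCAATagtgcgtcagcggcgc
Cdc20: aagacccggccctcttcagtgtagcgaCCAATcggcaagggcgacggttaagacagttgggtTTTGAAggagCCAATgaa
Ube2c: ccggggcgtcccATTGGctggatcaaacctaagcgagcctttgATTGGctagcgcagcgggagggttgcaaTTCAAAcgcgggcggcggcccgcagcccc
Kif11: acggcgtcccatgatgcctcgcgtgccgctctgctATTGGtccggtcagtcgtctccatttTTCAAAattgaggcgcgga

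In the controls Ccnb2 had an RPKM of 32.2 and 4.704, Cdc20 of 73.9 and 27.04, Ube2c of 41.3 and 18.95 and Kif11 of 35.9 and 10.6. On the log2 scale these 4 genes differed by −2.54, −1.42, −1.08 and −1.67. Only mitosis promoters with a CHR-type element were shown, and mitosis genes without one were not set beside them. The part of the elements in these differences was not tested. Among 22 DNA replication promoters, 10 (45.5%) held an E2F-type site (TTTCGCGC, TTTGGCGC or TTTCCCGC on either strand) against 4.31% of all, and 4 (18.2%) a CHR-type element. The Mcm6 promoter (minus strand, chr1:128359706-128359825) is shown with its E2F-type matches in capitals; the first block is a pair of matches on opposite strands that overlap by 4 bases.
Mcm6: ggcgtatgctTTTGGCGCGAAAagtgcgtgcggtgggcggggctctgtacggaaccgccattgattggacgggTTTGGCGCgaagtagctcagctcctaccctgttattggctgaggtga

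A match is a description of the letters, and binding was not measured. Over all 1327 promoters of lower genes the CHR-type share was 19.2% and the E2F-type share 5.65%, near the shares of all promoters.

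**Figure D4:**
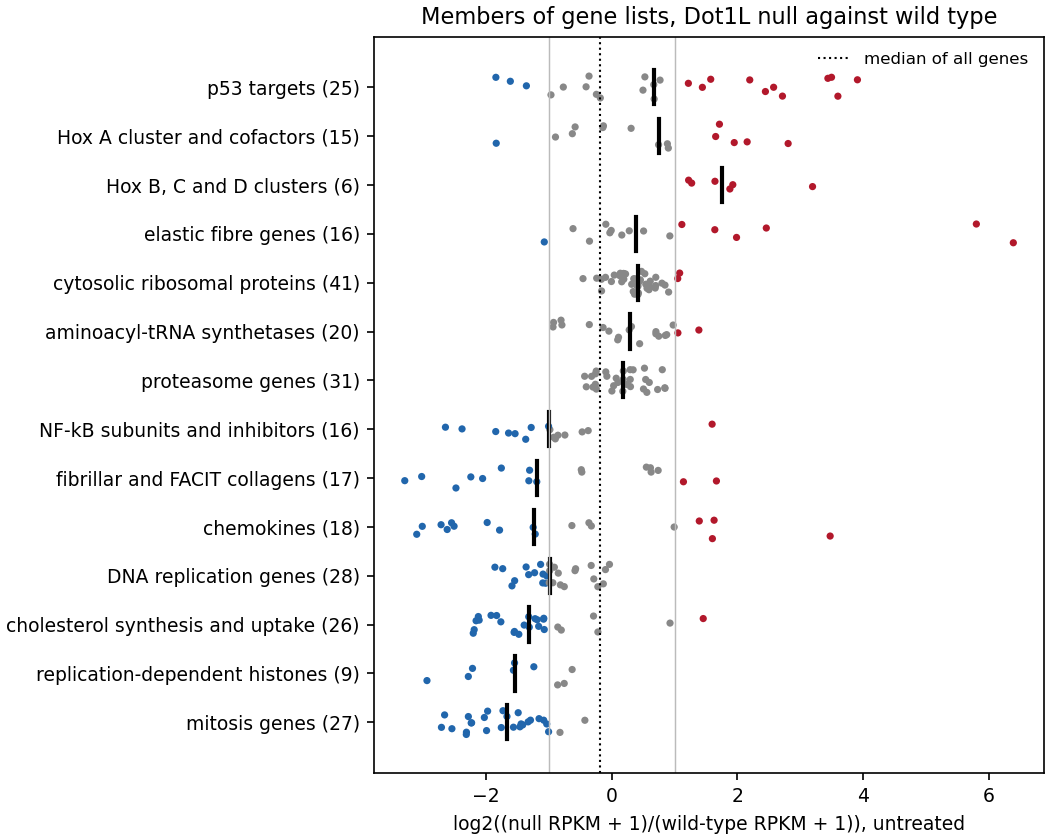
Null against wild-type difference of the members of 14 gene lists in the untreated libraries (log2 of RPKM + 1), 1 point per gene, red at least 2-fold higher, blue at least 2-fold lower, with the list's median as a black bar and the number of members in parentheses. Mitosis genes lie entirely left of 0, while proteasome genes stay between the 2-fold lines. The 6 genes plotted for the Hox B, C and D clusters are all Hoxb and lie right of 0. All of them except Hoxb9 passed the filter through the null alone and so had to lie there.

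Positional identity genes differed by cluster. Hox genes are homeobox factors set along the body axis and held in 4 clusters, and Hoxa genes are known DOT1L-dependent genes in MLL leukemia. Of 15 Hoxa genes and Hox cofactors past the filter, 5 were higher and 1 lower, against 6 higher and 0 lower under arsenite. The lower one lay at −1.84 on the log2 scale. The higher Hoxa genes were neighbours, Hoxa7 (1.27 and 6.44 RPKM in the controls), Hoxa9 (0.0273 and 2.97), Hoxa10 (0.145 and 4.096) and Hoxa11 (0.00591 and 6.04), with the antisense gene Hoxa11os beside them, between 52215623 and 52249769 on chromosome 6. Of these genes, Hoxa7 alone was at 1 RPKM or more in wild type; the others passed the filter through the null and so had to differ. Of the more anterior Hoxa genes, Hoxa5 and Hoxa6, named after their values were seen, lay at 0.90 and −0.14 on the log2 scale. The cofactor Meis2 was higher (2.31 and 9.402).

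All 6 genes of the other Hox clusters that passed the filter belonged to Hoxb, and all 6 were higher (median 1.76); a gene passing through its null level alone had to differ, and 5 of the 6 passed that way. Hoxb9 (ENSMUSG00000020875, chromosome 11, 96271330 to 96276595), the exception, had an RPKM of 3.23 and 37.7 in the controls and 0.646 and 19.9 with arsenite and was 11.7-fold higher (10.7 to 12.8). Hoxb3, Hoxb5, Hoxb6, Hoxb7 and Hoxb8 had 2.88, 1.89, 3.21, 2.92 and 2.92 in the null against 0.243, 0.198, 0.803, 0.0311 and 0.066 in wild type. Together with the predicted gene Gm53 they formed a run of 7 higher genes between 96251660 and 96347930 on chromosome 11, unbroken only among genes past the filter, most of which passed through the null. All 7 had a positive difference under arsenite, 5 of them past 2-fold.

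Of 50 mesenchymal patterning factors, 9 were higher and 15 lower (median −0.33), and 8 of the higher and 9 of the lower genes were past 2-fold the same way under arsenite, with none opposite. Osr1, a zinc finger factor of intermediate mesoderm and limb (ENSMUSG00000048387, chromosome 12, 9574442 to 9581500), had an RPKM of 0.356 and 54.7 in the controls and 0.643 and 25.9 with arsenite. Foxc2, a forkhead factor of paraxial mesoderm and vessels, and Sox9, the factor of cartilage, stood at 1.14 and 18.5 and 2.803 and 25.7 in the controls. On the lower side were Scx, the scleraxis of tendon precursors (45.7 and 4.79 in the controls and 61.6 and 9.71 with arsenite), and Sox11 (16 and 1.57 in the controls). Positional and lineage factors thus differed between the libraries in both directions. The 3 of 14 neural and glial markers that passed the filter were lower, Sox2 at 15.8 and 4.08, Nes at 43.8 and 18.9 and Tubb3 at 61.9 and 20.2, with a summed RPKM of 123 and 45.1 and Olig2 and Sox1 at 0 in both controls; their part in these differences was not tested.

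Extracellular matrix genes did not move as a block. Of 17 fibrillar and FACIT collagens, 9 were lower and 2 higher (median −1.19). The median was −0.48 without genes of chromosomes 15 and 16 and −0.0045 with no filter on low values. Col3a1, the collagen III of loose tissue, stood at 135 and 12.9 in the controls and 12.1 and 10.3 with arsenite, and Col12a1, which coats collagen fibrils, at 96.6 and 10.99 in the controls and 1.55 and 0.702 with arsenite. Both were lower in the untreated null, while under arsenite neither was past 2-fold. The chains of collagen I parted, Col1a1 at 335 and 133 in the controls and 63.9 and 72.2 with arsenite and Col1a2 at 64.2 and 206 in the controls and 9.58 and 50.9 with arsenite. Col1a2 was thus higher in the null of both pairs. Under arsenite 4 of the 17 collagens were higher and 2 lower (median 0.34).

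Elastic fibre genes stood on the other side, with 6 of 16 higher and 1 lower (median 0.39), and 9 higher and none lower under arsenite. Beside Efemp1 and Fbln2, these were Ltbp2 (0.345 and 6.397 RPKM in the controls), Fbln5 (11.4 and 25.9) and the cross-linking enzymes Lox (32.4 and 103) and Loxl1 (19.6 and 80.4). The collagen IV chains of basement membranes were lower, Col4a1 at 134 and 20.9 and Col4a2 at 89.2 and 26.9, whereas Col18a1, the source of endostatin, stood at 2.09 and 58.7 and Lama2, a laminin chain, at 0.036 and 3.23. Over that list 3 of 16 were higher and 5 lower, against 2 and 3 under arsenite.

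Among 17 matrix glycoproteins, 3 were higher and 9 lower (median −1.04), against 5 and 4 under arsenite (−0.35). Fn1, fibronectin, stood at 565 and 1411 in the controls and 30.7 and 53.6 with arsenite, and Tgfbi, an integrin ligand, at 3.33 and 17.95 in the controls. The matricellular proteins Ccn1, Ccn2 and Thbs1, of which Ccn1 and Ccn2 are known YAP targets, stood at 336 and 77.7, 180.3 and 23.04 and 458 and 119. Of 20 YAP and TEAD pathway genes as a whole, 4 were lower and 1 higher (median −0.27), close to the median of all genes, and none was higher and 4 lower under arsenite. Of 24 matrix proteases and inhibitors, 5 were higher and 10 lower, against 4 and 2 under arsenite. The stromelysins and collagenase Mmp3, Mmp10 and Mmp13 were lower (Mmp10 at 5.83 and 0.108, Mmp13 at 15.01 and 0.399), while Mmp2, the aggrecanase-type Adamts1 (9.596 and 82.05) and the inhibitor Timp3 (99.2 and 457) were higher. Serine protease inhibitors parted as well, Serpine2 at 0.236 and 29.7 and Serpinf1 at 60.6 and 19.1.

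The contractile genes gave an uneven picture. Acta2, the smooth muscle actin (ENSMUSG00000035783, chromosome 19, 34240336 to 34255585), had an RPKM of 721 and 80.5 in the controls and 956 and 1328 with arsenite. The untreated null was the low library and the 3 others lay within 2-fold of each other. Tagln and Myl9, partners of the same contractile programme, had 2.804 and 20.03 in the controls and 9.72 and 248 with arsenite and 1.02 and 15.3 in the controls and 4.85 and 139.8 with arsenite, higher in both null libraries. Over the list 3 of 22 were higher and 6 lower untreated, against 5 and none under arsenite. The 11 markers of smooth muscle cells and pericytes summed to 745 (wild-type control) and 117 (null), and to 970.1 and 1580.3 with arsenite. Most of this was Acta2, without which the other 10 summed to 23.8 and 36.5 in the controls and 13.96 and 252 with arsenite, and their part in this result was not tested. Among 21 cadherins and cell-cell adhesion genes 3 were higher and 10 lower untreated and 2 and 5 under arsenite, with Gja1, the gap junction protein connexin 43, at 37.5 and 10.1 and Mcam at 17.02 and 2.05 in the controls.

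Growth factor genes lay on both sides. Of 28 ligands, 6 were higher and 10 lower untreated, and 7 and 5 under arsenite. Igf2, the fetal insulin-like growth factor (ENSMUSG00000048583, chromosome 7, 142650768 to 142666816), had an RPKM of 1.77 and 43.3 in the controls and 1.34 and 44.99 with arsenite and was 24.4-fold higher (22.6 to 26.5); both null libraries stood far above both wild-type ones. Igf2r, the receptor that clears it, stood at 3.42 and 54.04 in the controls and 0.44 and 3.08 with arsenite. Fgf7, the keratinocyte growth factor of stroma, stood at 1.59 and 45.1 in the controls and 0.568 and 8.73 with arsenite. Pdgfb, Vegfc (23.9 and 1.95 in the controls and 2.99 and 0.582 with arsenite) and the vessel factor Angpt1 (7.84 and 0.218 in the controls) were on the lower side. The IGF-binding proteins split likewise, 2 of 7 higher and 3 lower untreated and 2 and 2 under arsenite, with Igfbp2 at 0.189 and 34.6 in the controls and 7.697 and 413 with arsenite and Igfbp4 at 24.1 and 159.8 higher, Igfbp3 and Igfbp7 (395 and 35.8 in the controls and 251 and 94.4 with arsenite) lower.

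Igf2 and Igf2r are imprinted, that is, expressed from the allele of a single parent. Of 15 imprinted genes, 4 were higher and 6 lower untreated, and 3 and 3 under arsenite. H19, the neighbour of Igf2 that uses the same enhancers, was higher (0.643 and 5.19 in the controls), as was Impact (28 and 113), while Peg3 (14.7 and 2.54) and Peg10 (16.5 and 3.26) were lower. The BMP and TGF-beta pathway had 6 of 34 higher and 8 lower, with a median of −0.20, near that of all genes, and 6 and 9 under arsenite. Its ligand Tgfb1 stood at 23.6 and 6.31 and the antagonists Fstl3 and Chrdl1 at 0.117 and 10.4 and 0.15 and 2.92. In the WNT pathway 3 of 28 were higher and 8 lower untreated, and 6 and 4 under arsenite, with the receptor Fzd1 at 23.5 and 2.26, the ligand Wnt4 at 6.33 and 0.343 and the ligand Wnt10b at 0.381 and 7.79.

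Among inflammatory genes, NF-kB components and chemokines had more members lower than higher in the untreated null. NF-kB is a transcription factor family held in the cytoplasm by inhibitors and released by cytokine and stress signals, and chemokines are among its best known targets. Of 16 NF-kB subunits, inhibitors and feedback genes, 8 were lower and 1 higher (median −0.99). The inhibitor Nfkbia stood at 131 and 44.4 in the controls and 92.1 and 177 with arsenite. Nfkbie, another inhibitor, stood at 38.2 and 5.26 in the controls and 5.603 and 7.47 with arsenite. Both were lower in the untreated null. Under arsenite the null value was above the wild-type one in each, but neither was past 2-fold. Over the list the arsenite pair had 1 higher and none lower.

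Of 18 chemokines, 10 were lower and 4 higher (median −1.23), whereas under arsenite 2 were lower and 8 higher (median 0.51). The filter used the controls only, so a chemokine that passed through a single control had its untreated direction fixed. With no filter the untreated median was −0.34. Cxcl10, a T cell attractant induced by interferon, had 24.2 and 3.101 in the controls and 2.49 and 0.886 with arsenite. Ccl2, the monocyte attractant, had 247 and 61.9 in the controls and 58.97 and 54.7 with arsenite, and Ccl7 and Ccl20 had 89.9 and 14.5 and 22.3 and 1.71 in the controls. Cxcl1, a neutrophil attractant (ENSMUSG00000029380, chromosome 5, 90891245 to 90893121), was 1 of the 4 chemokines higher untreated. It stood at 3.53 and 49.4 in the controls and 3.49 and 154 with arsenite, 13.98-fold higher (12.2 to 16.1) in the untreated null. Under the 2 treatments Cxcl1 and Cxcl10 kept opposite sides. Macrophage and leukocyte markers, of which Cd14, Cd68 and Lyz2 passed the filter, summed to 24.5 in the wild-type control, mostly Cd14, and 4.94 in the null, with Cd52, Tyrobp and Cd3e at 0 in both; their part in these differences was not tested.

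The promoters of Cxcl10 (minus strand, chr5:92348890-92349069) and Cxcl1 (plus strand, chr5:90891135-90891244) are shown because these chemokines lay on opposite sides although both hold NF-kB-type sites (GGGNNNTTCC on either strand, in capitals). In Cxcl1 a match on each strand overlaps by 9 bases in the second block.
Cxcl10: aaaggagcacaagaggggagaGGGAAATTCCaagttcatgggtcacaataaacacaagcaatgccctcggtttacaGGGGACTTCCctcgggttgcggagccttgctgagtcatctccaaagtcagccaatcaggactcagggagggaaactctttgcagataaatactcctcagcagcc
Cxcl1: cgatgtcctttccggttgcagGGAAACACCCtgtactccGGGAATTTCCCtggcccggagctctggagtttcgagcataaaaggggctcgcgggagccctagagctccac

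Such a site was found in 6 of 14 chemokine promoters (42.9%) and 6 of 12 promoters of the NF-kB list (50%), against 7.34% of all promoters, 7.99% of those of lower genes and 6.88% of those of higher genes. Genes on both sides thus held it.

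Of 33 cytokines and their receptors, 6 were higher and 11 lower untreated (median −0.53), whereas under arsenite 11 were higher and 3 lower (0.45). Il1rl1, the receptor of interleukin 33, stood at 7.43 and 111 in the controls and 1.53 and 38.5 with arsenite, high in both null libraries, and Tslp, a cytokine of barrier tissues, at 0.14 and 4.15 in the controls. Csf2, which encodes GM-CSF, was at 9.31 and 0.116 and Ptgs2, the prostaglandin synthase COX-2, at 130.1 and 39.2 in the controls and 28.1 and 8.53 with arsenite. Interferon response genes had 8 of 24 higher and 4 lower untreated, and 6 and 3 under arsenite. The antigen presentation genes H2-K1, a classical MHC class I chain, and Tap1 and Tap2, the peptide transporter, had 1.44 and 21.5 in the controls and 1.95 and 23.4 with arsenite, 0.0261 and 2.46 and 0.248 and 6.07. They were higher in the null, whereas the guanylate-binding proteins Gbp2 and Gbp3 (21.1 and 3.096 and 9.24 and 0.353) and the factor Irf1 (31.8 and 7.85) were lower. Tap1, Psmb8, Tap2 and H2-DMb1 were neighbours in the MHC among genes past the filter, H2-DMb1 alone at 1 RPKM or more in wild type, between 34153191 and 34216321 on chromosome 17, and all 4 were higher under arsenite too.

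Of the metabolic lists, cholesterol synthesis had the most members past 2-fold. Of 26 genes of synthesis and uptake, 20 were lower and 1 higher (median −1.32); the higher one, named after its values were seen, was the cholesterol exporter Abca1, at 1.46. Fdps, the farnesyl diphosphate synthase (ENSMUSG00000059743, chromosome 3, 89093588 to 89101967), had an RPKM of 93.9 and 20.99 in the controls and 81.2 and 310.4 with arsenite and was 4.47-fold lower (4.24 to 4.72) untreated. Mvd, the mevalonate decarboxylase, stood at 41.1 and 8.66 in the controls and 9.802 and 30.4 with arsenite, and Cyp51, a sterol demethylase, at 44.96 and 11.1 in the controls and 11.5 and 31.1 with arsenite. In each the untreated null was below its wild-type partner and the null under arsenite above it. Over the list the arsenite pair had 13 higher and none lower (median 1.06), and 9 genes were past 2-fold in opposite ways. A CCAAT box was found in 16 of 18 promoters of the list (88.9%), against 43.6% of all promoters. Of 18 fatty acid synthesis genes, 3 were lower and none higher untreated (median −0.44), and 2 lower and 3 higher under arsenite (0.25). Of all genes compared, 15.7% were lower untreated, so the lower count of this list stood near that of genes at large. Under arsenite 16.8% of all genes were lower and 6.89% higher.

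Of 29 genes of the NRF2 antioxidant pathway, 7 were higher and 3 lower untreated (median 0.42), whereas under arsenite 4 were higher and 11 lower (−0.49). Of all genes compared, 6.89% were higher and 15.7% lower untreated, and 6.89% and 16.8% under arsenite. Hmox1, heme oxygenase 1, had 82.4 and 405 in the controls and 416 and 618 with arsenite, and the untreated null stood at about the level of wild-type cells under arsenite. Ephx1, the microsomal epoxide hydrolase, had 13.8 and 126 in the controls and 32.2 and 283 with arsenite. The heme-pathway Blvrb (7.28 and 20.4 in the controls) and the pentose phosphate enzyme G6pdx (25.01 and 61.3) were higher, but Nqo1, the quinone reductase often used as a marker of NRF2, was lower (14.4 and 5.54 in the controls and 132 and 14.7 with arsenite). Of 18 glutathione S-transferases and peroxidases 5 were higher and none lower untreated, and 6 and 1 under arsenite, among them Gstt1 at 0.644 and 6.99 in the controls and 2.72 and 77.8 with arsenite. Of the metal-binding metallothioneins, Mt1 stood at 203 and 258 in the controls and 1259.7 and 1924 with arsenite and Mt2 at 324 and 127 in the controls and 1599 and 1220.4 with arsenite.

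Genes of protein synthesis and turnover moved by little. Of 41 cytosolic ribosomal proteins, 2 were higher and none lower (median 0.42). Of 20 aminoacyl-tRNA synthetases 2 were higher and none lower (0.30), and of 23 endoplasmic reticulum folding genes 2 were higher and none lower (0.30), with the chaperone Hspa5 at 244 and 585 in the controls and 231 and 163 with arsenite. None of 31 proteasome genes was past 2-fold (0.18). These medians lay above that of all genes, −0.19. Under arsenite none of the 4 medians was above 0.05, and 10 of the 20 synthetases and 8 of the 31 proteasome genes were lower, none of either higher. Of the ribosomal proteins 1 was higher and none lower there, and of the folding genes 1 was higher and 3 lower. Of 24 ATF4 and CHOP targets, 1 was higher and 3 lower untreated, against 1 and 16 under arsenite.

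Chromatin genes differed little as groups. Of 15 partners of DOT1L and elongation factors, 3 were lower and none higher (median −0.31), against 2 and none under arsenite. The lower ones were Mllt3, which encodes AF9 (6.78 and 2.63 in the controls), Men1, which encodes menin (29.04 and 12.8), and Ell2 (13.9 and 2.17). Ep300 and Crebbp, the acetyltransferases p300 and CBP that the series title concerns in part, stood at 23.1 and 24.2 in the controls and 1.29 and 0.558 with arsenite and 4.35 and 18.1 in the controls and 1.09 and 0.998 with arsenite. Ep300 was thus alike in the controls and Crebbp 4.17-fold higher (3.97 to 4.37) in the untreated null but not under arsenite. Of 14 acetyltransferases 1 was higher and 1 lower, of 18 deacetylases 1 was higher (Sirt1, 4.698 and 18.03) and 4 lower, and of 48 histone methyltransferases and demethylases 3 were higher and 3 lower. Under arsenite 3 acetyltransferases, 3 deacetylases and 9 of the methyltransferases and demethylases were lower, and none, none and 1 higher. The 3 lower methyltransferases and demethylases were Ezh2, the Polycomb methyltransferase (14.6 and 4.36 in the controls and 9.35 and 1.94 with arsenite), Nsd2 (17.03 and 5.68 in the controls) and Suv39h2 (4.76 and 1.5), while Kdm5b (3.201 and 9.52) was among the higher.

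Differences were not spread evenly over the chromosomes. The median ran from −0.56 on chromosome 15, where 11 of 451 genes were higher and 118 lower, to 0.29 on chromosome 16, where 48 of 346 were higher and 20 lower. Among genes at 5 RPKM or more in both controls these medians were −0.42 and 0.32. Chromosome 10 followed at 0.15. The arsenite pair had chromosomes 15 and 16 at its ends too, at −0.49 and 0.00. Chromosome number was not measured by another assay, and its part was not tested. On chromosome 15 a run of 7 neighbours among genes past the filter, between 51877441 and 54952789 (Utp23, Rad21, Med30, Ext1, Tnfrsf11b, Ccn3 and Enpp2) was lower throughout.

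**Figure D5:**
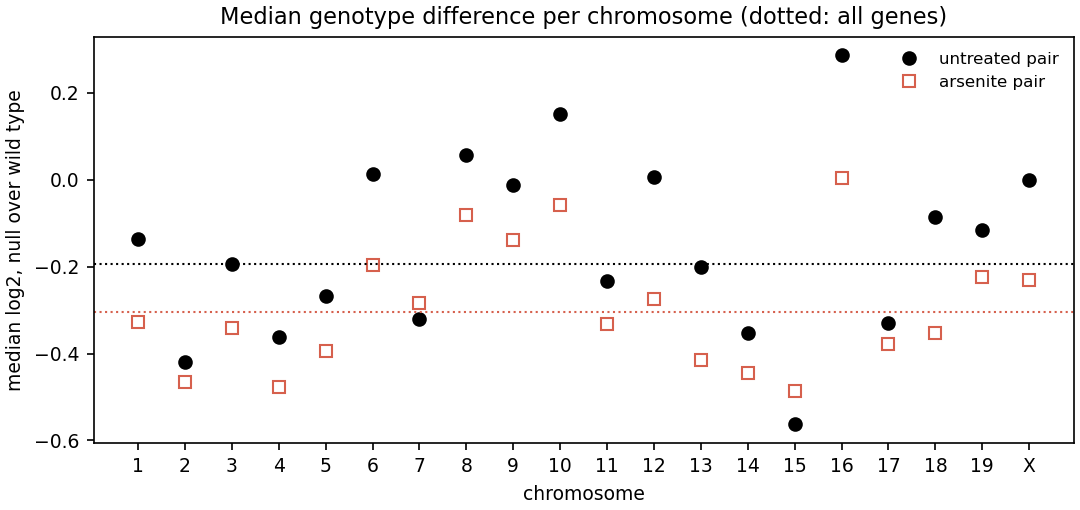
Median null against wild-type difference (log2 of RPKM + 1) of the genes of each chromosome in the untreated pair (filled circles) and the arsenite pair (open squares), with dotted lines at the medians of all genes, −0.19 and −0.30. Chromosome 15 is lowest and chromosome 16 highest in both pairs.

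Genes beside Dot1l lay mostly below 0 in the untreated pair. Within 500 kb of the gene, 42 passed the filter, of which 10 were lower, none higher and 34 below 0 (median −0.54), on a chromosome whose own median was 0.15. Of all genes compared, 15.7% were lower and 6.89% higher, with a median of −0.19, so most genes lay below 0 as well. Lmnb2, which encodes lamin B2, had an RPKM of 26.9 and 6.30 in the controls and 10.8 and 2.75 with arsenite, and Gadd45b, a stress protein, 142 and 48.8 in the controls and 88.01 and 38.9 with arsenite; both were named after their values were seen. In the arsenite pair 8 of the 42 were lower, 2 higher and 28 below 0 (median −0.24). Of all genes compared, 16.8% were lower in that pair, 6.89% higher and 67.4% below 0 (median −0.30). Under arsenite the neighbours of Dot1l thus stood about where most genes did. On the X chromosome, whose median was 0.00, Xist, the RNA that coats the inactive X, was also named after its values were seen; it had 26.7 (wild-type control) and 80.6 (null) RPKM, and 3.86 and 5.86 with arsenite.

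Features of the genes themselves differed between the groups. Genes higher in the null had a median RPKM of 1.69 in wild type and 9.95 in the null, against 9.89 and 7.85 for all genes, and genes lower in the null had 9.49 and 2.21. The groups were set by these same values, so the gap between the libraries within each group was fixed by the choice. A promoter poor in CpG (observed over expected under 0.5) was found for 30.3% of the higher and 19.6% of the lower genes, against 12.5% of all. The TATA box TATAAA, on either strand, was found in 13.2% and 11.5%, against 8.33% of all. Gene length had little weight, at −0.02 on the log2 scale per doubling of length. These are shares of promoters matched by symbol, 552 of the higher and 1327 of the lower genes.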

How the data were processed

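The deposited table holds expression values that the authors gave as RPKM for 37224 gene IDs in 4 RNA-seq libraries. TopHat, HTSeq, Bowtie, deepTools and the build mm10 are named in the submitters' processing notes; no annotation or strand setting is given in the sources used here. A kit removed ribosomal RNA, per the labels' protocols, and strand-marked paired-end libraries were made by the dUTP method, while the molecule label reads polyA RNA, and the labels do not settle this. A symbol was found for 35449 IDs.

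Values were compared as log2((RPKM + 1)/(RPKM + 1)) with no further scaling, over genes at 1 RPKM or more in either control. RPKM values are whole multiples of what 1 read is worth, so depth, gene length and reads were recovered, within a relative tolerance of 1e-12, for 21617 genes above 0. Of 521 small RNA genes, 359 had a recovered length equal to their span. A recovered length can be wrong by a whole factor, which cancels in a ratio of reads, and 1064 lengths under 200 bases were left out of the length trend. Reads gave exact conditional (Clopper-Pearson) 95% intervals, never a count model; they treat reads as independent molecules. The calculation was tested on simulated data. Python 3.11.15, numpy 2.4.6, pandas 2.3.3, scipy 1.17.1 and matplotlib 3.10.9 were used.

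The comparison, its 55 gene lists and 14 marker lists were chosen with earlier results of these data known. Named were the 15 highest and 15 lowest genes at 5 RPKM or more in the higher control, from each list the 6 members with the largest differences and any member over 100 RPKM, all markers at 1 RPKM or more, and Dot1l, Cdkn2a, Cdkn1a, Hmox1, Mt1, Mt2, Ep300 and Crebbp. Symbols of predicted genes, pseudogenes and small RNAs were left out of the ranking. Some genes that the rule names are not reported here. Genes outside this rule are said to be named after their values were seen. Promoters are from RefSeq (GRCm38.p6, the assembly also called mm10), with 8905 of 11680 symbols matched. Alternatives varied the pseudocount, the filter, the scaling, the length trend and the total. The H3K27ac libraries were not analysed here.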

Additional observations from a re-analysis of the deposited data

Results flagged for a closer look

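Some differences between null and wild type were past 2-fold, or a list's median past 0.5, in opposite ways in the untreated and the arsenite pair, and each of these contrasts between the pairs was not tested. The median of cholesterol synthesis and uptake genes was −1.32 untreated and 1.06 under arsenite. Among single genes, Fdps lay at −2.11 and 1.92, Mvd at −2.12 and 1.54, Cyp51 at −1.92 and 1.36, and the fatty acid elongase Elovl6 at −1.36 and 1.39. The median of chemokines was −1.23 and 0.51, but with no filter the untreated one was −0.34, which is not past 0.5. Gsto1, a glutathione transferase known to act on arsenic compounds, went the other way, at 1.07 untreated and −1.02 under arsenite.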

How the results depend on the processing

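No paired analysis was possible because the groups share only the replicate number 1. Of the counts reported, 812 higher, 1852 lower and 1088 past 2-fold the same way in both pairs, most stayed within 1.5 times under the other settings. The exceptions were a pseudocount of 5 RPKM, with 333 higher, 705 lower and 340 the same way, a pseudocount of 0.1 RPKM, with 1965 the same way, and a filter at 5 RPKM, with 531 higher. These follow from how each setting weighs low values and from fewer genes tested. Asking that the whole counting interval of the read ratio be past 2-fold, an alternative chosen after seeing the data, gave 902 higher and 2208 lower. That ratio carries no pseudocount, so it is another measure and not a stricter form of the rule behind the 812 and 1852. Among the medians of the 55 lists over the settings, which include leaving out genes of chromosomes 15 and 16, also chosen after seeing the data, 477 stayed within 0.5 of the reported one on the log2 scale and 16 moved further; among 38 single genes, 228 values stayed, 76 moved and 0 reversed. The medians that moved were those of the Hox B, C and D genes (3.31 with a pseudocount of 0.1, 0.62 with one of 5, 0.28 with no filter), replication-dependent histones (−2.42, −0.67 and −0.48 in the same order), chemokines (−0.56 with a pseudocount of 5, −0.34 with no filter), collagens (as given with them), matrix glycoproteins (−0.38), cadherins (−0.0063) and complement genes (0.014) with no filter, IGF-binding proteins and proteoglycans. Of all list medians, 12 changed sign, in 9 lists, each with a reported median within 0.5 of 0. IGF-binding proteins turned from 0.49 to −0.034 with no filter and −0.46 without chromosomes 15 and 16. With a filter at 5 RPKM, proteoglycans turned from −0.19 to 1.16, AP-1 factors from −0.39 to 0.10, other immediate early genes from −0.28 to 0.062 and mitochondrially encoded genes from −0.12 to 0.019. Interferon response genes turned from −0.31 to 0.017 with no filter, and retinoid genes from −0.21 to 0.035 without chromosomes 15 and 16. Centring on all genes turned 4 lists: proteoglycans (0.0022), histone methyltransferases and demethylases (0.033), mitochondrially encoded genes (0.075) and metallothioneins and zinc transporters (0.079). The arsenite libraries are shallower, so their values for genes near 1 RPKM rest on fewer reads. Without replicates, the spread between cultures and between lines of a genotype was not measured.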

Other observations

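Lists not described above held further genes with large differences. S100 proteins, small calcium binders, had 3 of 9 higher and 1 lower untreated and 5 and 1 under arsenite, with S100a6 at an RPKM of 375 and 1367 in the controls and 2246 and 13008 with arsenite, high in both null libraries. In retinoid and aldehyde metabolism 4 of 11 were higher and 4 lower untreated and 4 and 1 under arsenite: the retinoic acid binder Crabp2 stood at 0.456 and 13 in the controls and 1.33 and 19.9 with arsenite, and the retinol dehydrogenase Rdh10 at 22.2 and 5.001 in the controls. Complement genes had 2 of 6 higher and none lower untreated and 5 and none under arsenite, with C4b at 0.34 and 6.503 in the controls and 0.13 and 4.86 with arsenite, and C3, the central component, at 62.5 and 95 in the controls and 5.37 and 60.8 with arsenite. Heat shock genes had 3 of 21 higher and 3 lower untreated and 3 and 6 under arsenite, with the co-chaperone Bag3 at 0.0981 and 18.99 in the controls and 0.249 and 13.2 with arsenite and Hspa4l at 33.7 and 3.91 in the controls and 7.31 and 0.557 with arsenite. Among the proteoglycans, 3 of 8 higher and 3 lower untreated and 3 and none under arsenite, the mimecan Ogn stood at 3.01 and 35.03 in the controls and 1.31 and 21.3 with arsenite, Vcan, versican, at 6.32 and 40.03 in the controls and 1.04 and 2.17 with arsenite and Dcn, decorin, at 60.7 and 19.4 in the controls. Of 7 AP-1 factors 3 were lower and none higher untreated and none and 1 under arsenite, with Jun at 41.6 and 12.4 in the controls and 3.36 and 1.87 with arsenite, and of 20 MAP kinase feedback genes 6 were lower and 1 higher untreated and 4 and 3 under arsenite, with Dusp6 at 19.7 and 8.46 in the controls.

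Other lists are given with their median log2 difference in the untreated and then in the arsenite pair; that of all genes was −0.19 and −0.30. Of 24 receptor tyrosine kinases and other growth factor receptors, 1 was higher and 3 lower (−0.23 and 0.04). Integrins had 2 of 14 higher and 2 lower (−0.33 and −0.08), collagen-modifying enzymes 2 of 20 higher and 5 lower (−0.30 and 0.43), and other immediate early genes 1 of 17 higher and 5 lower (−0.28 and 0.00). Glycolysis and hypoxia genes had 1 of 25 higher and 2 lower (−0.22 and 0.01), and amino acid transporters 2 of 18 higher and 4 lower (0.30 and −0.41). Serpins and other plasminogen system genes had 5 of 19 higher and 3 lower (0.50 and 0.45). Metallothioneins and zinc transporters had 1 of 11 higher and 2 lower (−0.11 and −0.39). Untreated, none of 10 mitochondrially encoded genes was past 2-fold (−0.12 and −0.60), nor any of 3 other RNAs without a poly(A) tail (0.40 and −0.13). Of the mitochondrial genes, mt-Co2, mt-Co3 and mt-Atp6 stood at 1.13 to 3.58 RPKM in the wild-type control beside 3737 for mt-Co1, and as mitochondrial genes have near-identical nuclear copies, their values are uncertain.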
